A study of Mus musculus with 6 samples.

Results

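*Nfia*, *Nfib*, *Nfic*, *Nfix*, *Runx1*, *Runx2*, *Runx3*, *Cbfb* and *Sp7* encode transcription factors of the NFI and Runx families, the partner protein of the Runx family and the zinc finger factor osterix. They were taken by gene symbol and make up 9 of the 27506 genes in the count table. All 9 passed the filter on low counts, which kept 19330 genes. Dental pulp RNA of the mandibular first molar at 3.5 days after birth was compared between 3 libraries of *Ror2*fl/fl control mice and 3 libraries of *Osr2-Cre;Ror2*fl/fl mice, called mutant below, on the C57BL/6 strain. Both groups carry the floxed *Ror2* allele, which encodes a Wnt receptor tyrosine kinase, and the label of the control mice names no Cre. A consequence of *Ror2* deletion and one of the *Osr2-Cre* allele itself therefore cannot be told apart. *Osr2-Cre* acts in the dental mesenchyme and alveolar bone and spares the dental epithelium, so epithelial cells of the mutant keep *Ror2*. The labels do not state how many animals gave each library, so p-values measure the spread between these libraries only.

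At this age the crown of the molar is mineralizing and root formation is beginning. NFI proteins bind DNA as dimers to a palindrome of TTGGC and GCCAA, and loss of *Nfic* in mice is known to leave molars with crowns but short, malformed roots. Runx proteins bind TGTGGT, and Cbfb, which does not bind DNA itself, raises their affinity for it and protects them from degradation. *Runx2* is required for osteoblast formation and early tooth development, and *Sp7*, which acts downstream of *Runx2* in bone, belongs to the Sp family that recognizes GC-rich DNA.

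The 250 bases before the annotated start are shown for *Cbfb* and *Runx1*, the genes whose control and mutant values did not overlap, and for *Nfic*, the NFI gene known for its part in root formation. Sequences are from RefSeq on GRCm38.p6, run 5′ to 3′ on the strand of the gene and carry matches to the searched motifs in capitals. The window of *Cbfb* is chr8:105170424-105170673 on the plus strand, directly before the gene. The window of *Nfic* is chr10:81427174-81427423 on the minus strand and precedes a start inside the longest annotated gene span. The window of *Runx1* is chr16:92697330-92697579 on the minus strand and precedes the inner of 2 starts listed for that gene.
Cbfb: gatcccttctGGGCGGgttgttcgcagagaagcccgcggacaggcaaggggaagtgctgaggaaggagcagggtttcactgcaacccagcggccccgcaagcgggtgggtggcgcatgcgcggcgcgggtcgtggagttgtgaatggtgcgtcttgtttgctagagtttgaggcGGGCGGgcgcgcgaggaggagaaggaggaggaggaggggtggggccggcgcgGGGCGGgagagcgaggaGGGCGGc
Nfic: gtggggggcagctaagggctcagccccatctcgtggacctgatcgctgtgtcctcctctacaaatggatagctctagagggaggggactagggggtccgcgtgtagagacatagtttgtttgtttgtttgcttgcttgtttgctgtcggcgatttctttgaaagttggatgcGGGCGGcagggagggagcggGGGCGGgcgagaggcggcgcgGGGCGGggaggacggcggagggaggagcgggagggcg
Runx1: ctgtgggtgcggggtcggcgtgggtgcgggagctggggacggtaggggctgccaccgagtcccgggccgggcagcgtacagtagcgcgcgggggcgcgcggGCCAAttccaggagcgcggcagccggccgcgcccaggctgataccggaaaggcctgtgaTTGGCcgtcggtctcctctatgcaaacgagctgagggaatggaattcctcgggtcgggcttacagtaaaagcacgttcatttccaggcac
The *Cbfb* window held 4 GC boxes (GGGCGG or its reverse complement CCGCCC), the closest of them 2 bases before the start, and the *Nfic* window held 3. The inner *Runx1* window held 2 copies of the NFI motif TTGGC or GCCAA. Neither the *Cbfb* nor the *Nfic* window held TGTGGT or ACCACA, the letters recognized by Runx proteins. Of the windows not shown, that of *Runx2* held 1 such match, the outer window of *Runx3* held 2 and 1 window of *Nfix* held 1. In the GENCODE M21 annotation 170 of the 250 bases of the *Runx2* window lie in exons, and its match lies within the span of that gene. Among 32851 promoter windows of the same length, 32.7% held a GC box, 41.5% held TTGGC or GCCAA and 14.0% held TGTGGT or ACCACA. The full NFI palindrome, TTGGC and GCCAA separated by any 5 bases and so overlapping both shorter motifs, was in 12 of all windows and in 0 of the 12 windows of these genes. Windows were found for 7 of the 9 genes. These matches describe the letters of each window, and binding was not measured.

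The libraries held 56134770 to 62628940 estimated counts, and *Ror2* was counted at 38.2, 36.2 and 36.7 CPM (counts scaled to a common library total) in the control libraries and at 27.9, 28.1 and 26.3 CPM in the mutant libraries. All mutant values lay below all control values, with a log2 fold change of -0.43 (SE 0.08, n = 3 per group, edgeR quasi-likelihood test, adjusted p = 0.013). *Ror2* was not called without control library 2 (adjusted p = 0.066, edgeR) or without control library 3 (adjusted p = 0.075, edgeR). Counts cover all exons, including those that the deletion leaves in place. The enamel gene *Amelx*, expressed by ameloblasts, held 9.2% to 15.1% of the counts, and 12 dental epithelium markers together held 17.4%, 19.3% and 18.6% in the control and 25.7%, 18.7% and 21.6% in the mutant libraries. The RNA labelled dental pulp therefore included much RNA of enamel epithelium. The 14 dental mesenchyme markers held 0.141% to 0.186% of the counts, and 2 of them were called higher and 2 lower in the mutant. The 6 odontoblast markers, among them *Col1a1*, held 2.01%, 6.00% and 4.32% in the control and 4.68%, 1.72% and 2.43% in the mutant libraries, with 0 of 6 called. In these odontoblast markers, control library 1 thus stood apart from control libraries 2 and 3, and mutant library 1 from mutant libraries 2 and 3. Over all tested genes it was mutant library 2 that stood apart within the mutant. On the second principal component, the second largest axis of variation in log2 CPM, it lay at 50.6, against -28.1 and -34.9 for mutant libraries 1 and 3. In its label, control library 1 also has other letters (WW) than the remaining control libraries (OW), and the mutant libraries have OR. Longer numbers in the labels also differ between the control and mutant libraries, whereas the same S numbers recur in both groups. What these letters and numbers mean is not stated. Where they differ between the groups, whatever they stand for cannot be told apart from genotype. Of the tested genes of lists for other cell types, 5 of 6 for skeletal muscle and 2 of 7 for red cells were called lower, 2 of 7 for Schwann cells and neurons higher, and 0 of 7 for endothelium and 0 of 6 for osteoclasts were called. The leukocyte list had 2 called higher and 1 lower of 11, and the bone list 1 higher and 2 lower of 6. The epithelial list had 0 of 12 called. These counts stand beside 20.2% of all tested genes called, 9.84% lower and 10.4% higher in the mutant. The lists are short, and none was tested as a set. The part of these cell types in the results below was not tested.

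*Cbfb* was lower in the mutant. It was counted at 102, 127.6 and 123.9 CPM in the control libraries and at 77.6, 59.4 and 69.8 CPM in the mutant libraries. The lowest control value lay above the highest mutant value. The means were 118 ± 13.8 CPM and 69.0 ± 9.11 CPM (SD, n = 3 per group), and the log2 fold change was -0.77 (SE 0.13, 95% interval -1.08 to -0.47). With an adjusted p of 0.0085 in edgeR's quasi-likelihood test, *Cbfb* was the only called gene of the 9, against 20.2% of all tested genes called in either direction, 9.84% called lower and 10.4% called higher. *Cbfb* and *Runx1* were the 2 of 9 genes whose mutant values all lay below the control values, against 22.1% of all tested genes lower in this way, 22.6% higher and 44.7% in either direction. The fitted values of all 9 genes were below 0, with a median of -0.24 beside 0.01 over all tested genes. Those of *Nfia*, *Nfib* and *Runx1*, however, were 0.24, 0.08 and 0.00 when library differences by GC content and gene length were removed. In the same fit *Cbfb* and *Runx2* had -0.57 and -0.42. *Nfic*, *Nfix*, *Runx3* and *Sp7* lay further below 0 than without the removal, at -0.25, -0.24, -0.34 and -0.47, and were not called. In bulk RNA, fewer cells that express a gene and less RNA per cell cannot be told apart.

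**Figure D1:**
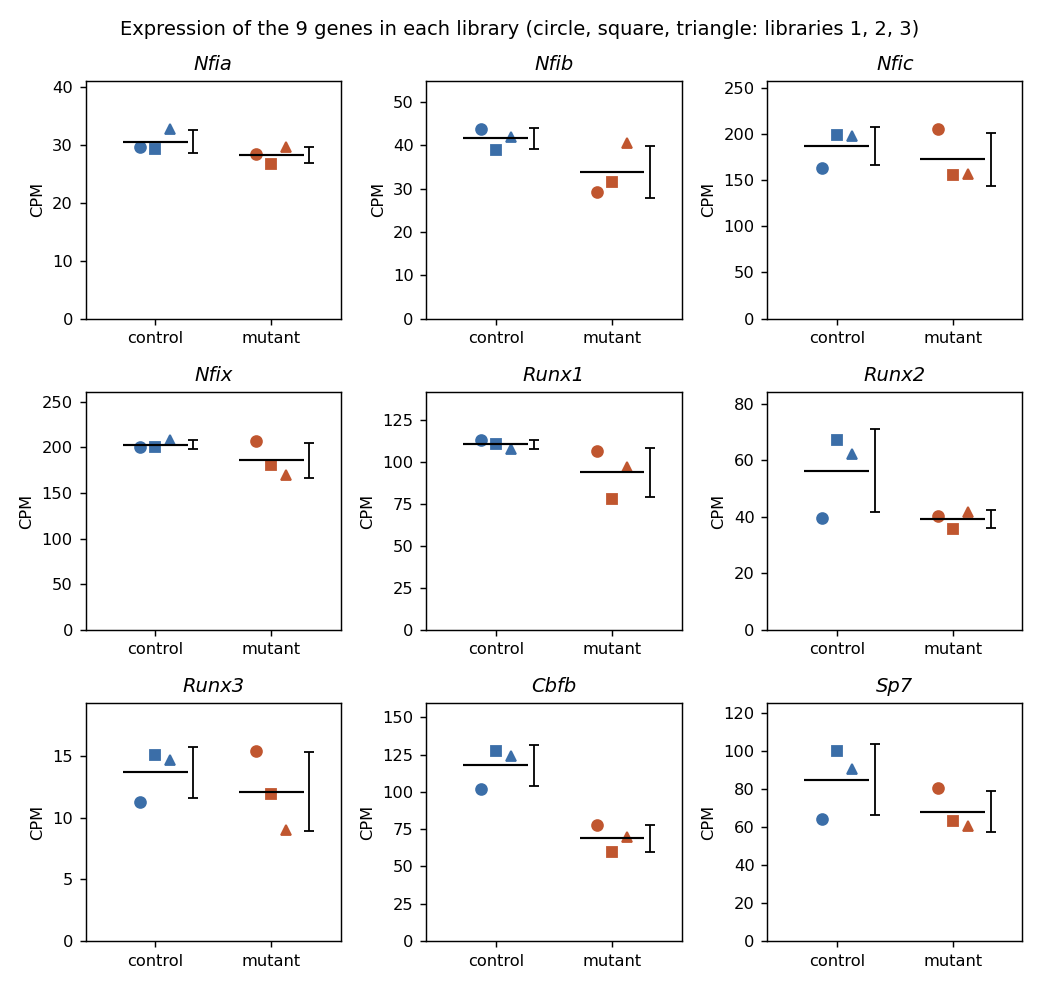
CPM (vertical axes from 0) of each of the 9 genes in the 3 control (blue) and 3 mutant (orange) libraries. Circles, squares and triangles are libraries 1, 2 and 3 of each group, the line is the group mean and the bar beside it the SD. *Cbfb* and *Runx1* are the panels in which the groups do not overlap, and control library 1 (circle) is the lowest control in *Runx2*, *Sp7*, *Nfic*, *Runx3* and *Cbfb*.

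The lower *Cbfb* value did not depend on any single library, since the log2 fold change ran from -0.88 to -0.67 with 1 library left out and the adjusted p (edgeR) from 0.011 to 0.047. The *Cbfb* transcript has a GC content of 42.5%. With library differences by GC content removed, its log2 fold change was -0.52 (adjusted p = 0.021, edgeR). Relative to the mean of the 14 dental mesenchyme markers, a scale added after the data were seen, *Cbfb* stood at log2 ratios of 1.26, 1.25 and 1.23 in the control and 0.68, 0.46 and 0.79 in the mutant libraries. The groups remained apart on that scale, with a difference of -0.61 (two-sided exact permutation test, p = 0.1, the smallest p that 3 against 3 libraries allow). *Cbfb* (chromosome 8, 105170674 to 105217989, plus strand, mm10) shares no stretch of 75 bases with another gene.

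Among the Runx genes, *Runx2* had the largest difference without passing the threshold. It lies on chromosome 17, 44495987 to 44814797, minus strand, and was counted at 39.8, 67.4 and 62.2 CPM in the control libraries and at 40.4, 35.7 and 41.9 CPM in the mutant libraries. Control libraries 2 and 3 lay above every mutant library, whereas control library 1 lay among the mutant values. The means were 56.4 ± 14.7 CPM and 39.4 ± 3.23 CPM (SD, n = 3 per group), with a log2 fold change of -0.52 (SE 0.19, 95% interval -0.94 to -0.10) and an adjusted p of 0.078 in edgeR's quasi-likelihood test. Without control library 1 the log2 fold change was -0.73 and *Runx2* was called (adjusted p = 0.013, edgeR), and without control library 2 it was -0.38 (adjusted p = 0.25). DESeq2's Wald test also called *Runx2* (adjusted p = 0.036), so its call depended on the test. Of the stretches of 75 bases in *Runx2*, 5.13% are shared with other genes, mostly the antisense gene *Runx2os1*, which held 257.3 counts over the 6 libraries. The use of strand in counting is not stated.

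*Runx1* (chromosome 16, 92601466 to 92826149, minus strand), a factor of blood stem cells that is also expressed in dental epithelium, was counted at 113.5, 111 and 108 CPM in the control and 106.5, 77.9 and 97.4 CPM in the mutant libraries. All mutant values lay below the control values, but mutant library 1 lay just under them. The log2 fold change was -0.24 (SE 0.12, 95% interval -0.52 to 0.05, edgeR adjusted p = 0.195). *Runx3* (chromosome 4, 135120652 to 135177990, plus strand), known for its roles in lymphocytes, sensory neurons and cartilage, was counted at 11.3, 15.1 and 14.7 CPM in the control and at 15.4, 11.9 and 9.02 CPM in the mutant libraries. Its groups overlapped over most of their range, with mutant library 1 the highest of all and mutant library 3 the lowest. Its log2 fold change was -0.18 (SE 0.20, 95% interval -0.64 to 0.29, edgeR adjusted p = 0.55), and with 532 to 911 counts per library it was the least counted of the 9 genes.

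*Cbfb* was also set against its binding partners, by dividing its CPM per kilobase of exon by the summed values of *Runx1*, *Runx2* and *Runx3*. This ratio was chosen after the values were seen and is given as a description without a test. It was 1.81, 1.85 and 1.88 in the control and 1.35, 1.33 and 1.37 in the mutant libraries. The libraries of each genotype held almost the same ratio although the summed Runx level itself ran from 12.9 to 19.8 CPM per kilobase. The genotypes lay apart, as they did for *Cbfb* by itself. How often ratios of other genes lie apart or are as even was not counted. With the length of the longest transcript in place of all exons the ratio was 1.24, 1.33 and 1.35 in the control and 0.946, 0.940 and 0.950 in the mutant. With GC differences removed it was 1.72, 1.68 and 1.71 in the control and 1.46, 1.49 and 1.43 in the mutant libraries, which narrowed the gap but left the genotypes apart. By *Runx2* alone the difference was less regular, since the log2 ratio of *Runx2* to *Cbfb* differed by 0.29 between the groups (exact permutation test, p = 0.2, 0.99 after adjustment over 11 ratios and shares).

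**Figure D2:**
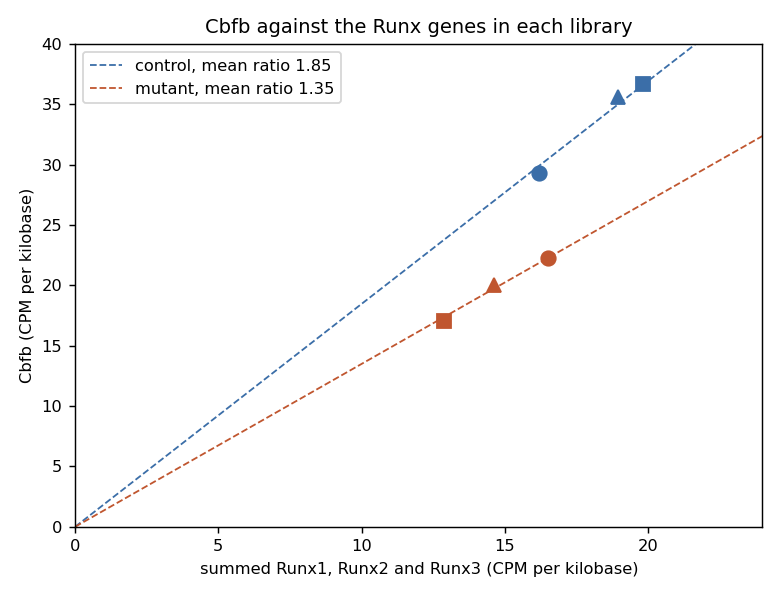
*Cbfb* level against the summed level of *Runx1*, *Runx2* and *Runx3*, both in CPM per kilobase of exon, with 1 point per library (circles, squares and triangles for libraries 1, 2 and 3; control blue, mutant orange). Dashed lines pass through 0 with the mean ratio of each group, 1.85 for the control and 1.35 for the mutant, and each library lies close to the line of its own group.

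The NFI genes did not pass the threshold. *Nfic* (chromosome 10, 81396186 to 81455635, minus strand), the NFI gene required for root formation, was counted at 163, 199 and 197 CPM in the control and at 206, 155 and 156 CPM in the mutant libraries. Mutant library 1 held the highest value of all 6 and the other mutant libraries the lowest, so that the groups overlapped completely. The log2 fold change was -0.11 (SE 0.15, 95% interval -0.45 to 0.22, edgeR adjusted p = 0.60). *Nfix* (chromosome 8, 84699876 to 84800344, minus strand), which is best known from brain and muscle development, was counted at 200.3, 200 and 208 CPM in the control and at 207, 180.4 and 169 CPM in the mutant libraries. Its control libraries were close together and mutant library 1 lay among them, and the log2 fold change was -0.13 (SE 0.11, 95% interval -0.38 to 0.12, edgeR adjusted p = 0.42). With GC differences removed, *Nfic* had -0.32 and *Nfix* -0.33 (adjusted p = 0.18 and 0.075, edgeR).

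*Nfib* (chromosome 4, 82290173 to 82705750, minus strand), needed for lung and brain maturation, was counted at 43.9, 39.0 and 42.0 CPM in the control and at 29.3, 31.6 and 40.6 CPM in the mutant libraries. Mutant libraries 1 and 2 lay below the control and mutant library 3 within it. The log2 fold change was -0.30 (SE 0.13, 95% interval -0.60 to 0.00, edgeR adjusted p = 0.13). Without mutant library 3 it was -0.46 and *Nfib* was called (adjusted p = 0.021, edgeR), whereas removing GC differences left -0.08 (adjusted p = 0.68). *Nfia* (chromosome 4, 97772734 to 98118874, plus strand), which acts in glial development, was counted at 29.6, 29.3 and 32.8 CPM in the control and 28.4, 26.7 and 29.6 CPM in the mutant libraries. The groups overlapped at their edge, with a log2 fold change of -0.11 (SE 0.09, 95% interval -0.33 to 0.10, edgeR adjusted p = 0.41) that became 0.14 once GC differences were removed.

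*Sp7* (chromosome 15, 102356606 to 102367182, minus strand) was counted at 64.2, 100.1 and 90.4 CPM in the control and at 80.7, 63.1 and 60.5 CPM in the mutant libraries. Control library 1 lay among the mutant values, as it did for *Runx2*, and mutant library 1 lay between the control values. The means were 84.9 ± 18.6 CPM and 68.1 ± 11.0 CPM (SD, n = 3 per group), with a log2 fold change of -0.32 (SE 0.18, 95% interval -0.73 to 0.09) and an adjusted p of 0.22 in edgeR's quasi-likelihood test. The log2 ratio of *Sp7* to *Runx2* differed by 0.18 between the groups (exact permutation test, p = 0.4).

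**Figure D3:**
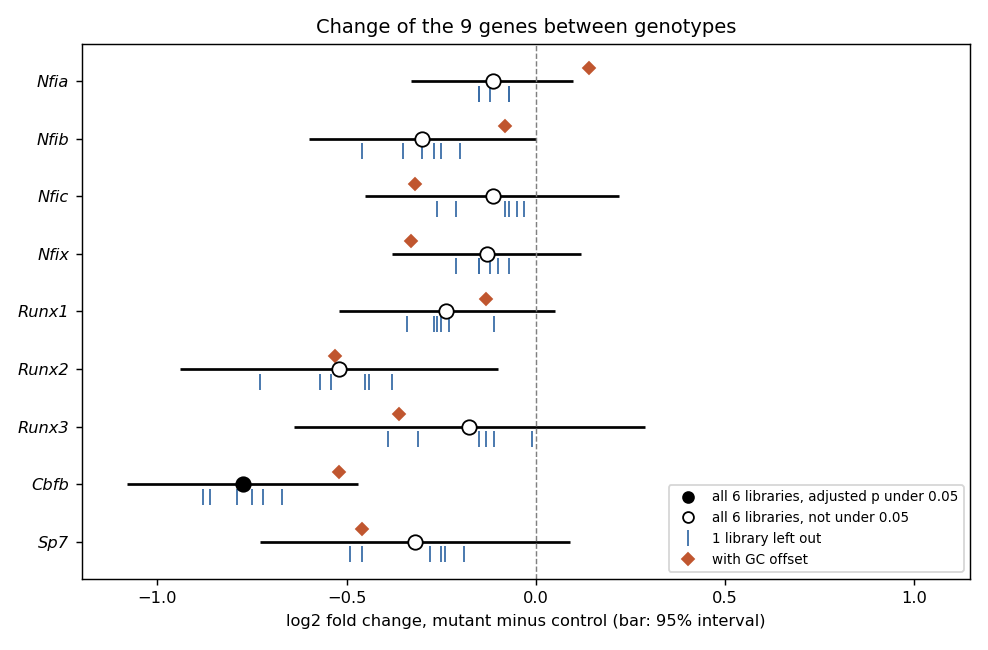
Log2 fold change of each gene, mutant minus control (horizontal axis), from edgeR's fit with its 95% interval. Blue ticks leave out 1 library each and orange diamonds remove library differences by GC content. *Cbfb* is the filled point at -0.77, all its ticks and its diamond lie below -0.5, and the diamond of *Nfia* lies above 0.

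Per kilobase of exon, *Cbfb* had the highest control level of the 9 genes, 33.9 ± 3.97 CPM per kilobase (SD, n = 3), followed by *Nfic* at 28.1 ± 3.09, *Nfix* at 27.6 ± 0.647 and *Sp7* at 25.0 ± 5.47. Each of these overlapped the next in the range of its control libraries, and *Sp7*, the lowest of them, lay above 90.7% of tested protein-coding genes by its mean over all 6 libraries. *Runx1* followed at 9.21 ± 0.222 and *Runx2* at 6.38 ± 1.66 CPM per kilobase, each apart from the gene above it. *Nfia*, *Nfib* and *Runx3*, at 2.81 ± 0.179, 2.78 ± 0.166 and 2.73 ± 0.416 CPM per kilobase, could not be ordered. In the mutant, *Cbfb* fell to 19.8 ± 2.62 CPM per kilobase and stood below *Nfic* and *Nfix*, while its values of 17.1 to 22.3 overlapped those of *Sp7*, 17.8 to 23.8. With the length of the longest transcript, *Nfix* (37.1 CPM per kilobase in the control) stood above *Nfic* (29.9), and *Nfib* (4.57) above *Runx3* (3.52) and *Nfia* (3.21), and *Cbfb* (23.9 in the mutant) stood above *Sp7* there, so the order within these groups depends on the length used.

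Within the NFI family, *Nfic* held 45.8% ± 2.73 of the summed CPM per kilobase in the control and 46.2% ± 2.17 in the mutant (SD, n = 3 per group). *Nfix* held 45.1% ± 2.07 and 45.1% ± 1.46, and *Nfia* and *Nfib* shared the rest. The balance between *Nfic* and *Nfix* depends on the length used, since with the longest transcript *Nfic* held 39.9% and *Nfix* 49.7% in the control and 40.4% and 49.7% in the mutant. Of the Runx RNA, *Runx1* held 50.7% ± 6.58 in the control and 53.1% ± 2.59 in the mutant, *Runx2* 34.4% ± 5.79 and 30.5% ± 2.45, and *Runx3* 14.9% ± 0.817 and 16.5% ± 3.60. With the longest transcript *Runx1* held 61.0% in the control and 63.4% in the mutant. The groups overlapped for all 7 shares, with exact permutation p-values of 0.3 to 1 and of at least 0.99 after adjustment over 11 shares and ratios. The ratios *Nfic* to *Nfib* and *Nfix* to *Nfia* differed by 0.19 and -0.02 on the log2 scale (exact permutation tests, p = 0.6 and p = 0.8).

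Several of the 9 genes deviated in the same direction as the mean of the odontoblast markers from library to library. How many of all tested genes did so was not counted. The mean log2 level of those 6 markers deviated from its mean over all libraries by -0.47, 0.72 and 0.33 in the control and by 0.43, -0.79 and -0.23 in the mutant libraries. *Sp7* deviated in the same direction in every library, by -0.23, 0.42 and 0.27 in the control and 0.10, -0.25 and -0.31 in the mutant. *Nfic* did so as well, by -0.13, 0.16 and 0.15 in the control and 0.21, -0.20 and -0.19 in the mutant, and so did *Runx3*. *Runx2* shared the direction in 5 of 6 libraries, the exception being mutant library 1 at -0.20. *Nfix* and *Runx1* also shared it in 5 of 6, the exception being control library 1 at 0.05 and 0.16. *Cbfb* deviated by 0.19, 0.51 and 0.47 in the control and by -0.21, -0.59 and -0.36 in the mutant, so that it was above its mean in control library 1, where the odontoblast markers were low, and below it in mutant library 1, where they were high.

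**Figure D4:**
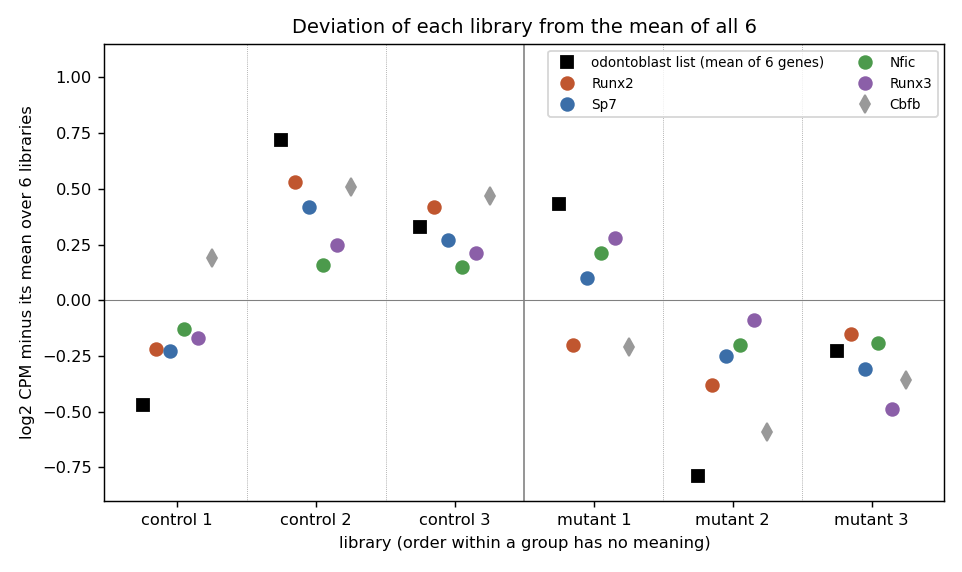
Deviation of each library from the mean of all 6 on the log2 CPM scale (vertical axis) for the mean of 6 odontoblast markers (black squares), *Runx2*, *Sp7*, *Nfic* and *Runx3* (circles) and *Cbfb* (grey diamonds), with libraries side by side on the horizontal axis. In control library 1 and mutant library 1 *Cbfb* lies on the other side of 0 from the odontoblast markers, while *Sp7*, *Nfic* and *Runx3* lie on the same side in each library.

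Likeness of pattern was measured as the SD over the 6 libraries of the log2 ratio of a pair of genes, among 5166 or 5167 genes of at least 10 CPM. Nearest to *Nfic* were *Gsr*, the glutathione reductase gene (SD 0.033), *Timp2*, an inhibitor of matrix metalloproteinases (0.048), and *Usp6nl* (0.049). For *Nfic* the median SD over candidates was 0.27, and 1.12% of candidates lay under 0.1. Nearest to *Sp7* were *Zcchc24* (0.051), *Hivep3*, a zinc finger gene known from bone formation (0.064), and *Pdgfrl* (0.071), beside a median of 0.34. Nearest to *Runx2* were *Lama1*, a laminin chain of basement membranes (0.076), *Rgs5*, a marker of pericytes (0.084), and *Ctso*, a cathepsin gene (0.088), beside a median of 0.39. For *Runx2*, 0.0968% of candidates lay under 0.1. This share cannot be compared with that of *Nfic*, since the SD also grows with a gene's own spread. *Runx2* deviated from its mean by -0.38 to 0.53 and *Nfic* by -0.20 to 0.21. These SDs describe 6 libraries of 2 genotypes and include the difference between genotypes.

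Of 25 tested genes for partners, repressors and regulators of Runx proteins, 1 was called higher and 3 lower, with a median log2 fold change of -0.13. In this list and the 3 that follow, the share of genes called stood near the 20.2% of all tested genes. *Wwp1*, a ubiquitin ligase that acts on Runx2, was counted at 93.3, 101.9 and 96.0 CPM in the control and 59.0, 42.2 and 65.2 CPM in the mutant libraries, which did not overlap (log2 fold change -0.81, edgeR adjusted p = 0.013), and the change was -0.48 with GC differences removed. *Maf*, a partner of Runx2, fell by 0.55 (adjusted p = 0.028, edgeR). *Hdac5*, a histone deacetylase that represses Runx2, was 81.0 ± 3.90 CPM in the control and 112 ± 4.14 CPM in the mutant (SD, n = 3 per group) and rose by 0.47 in log2 terms (edgeR adjusted p = 0.012), but was not called with GC differences removed (0.25, adjusted p = 0.075). Without control library 2 or without control library 3, adjusted p-values of these 3 genes were 0.053 to 0.12.

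Among 15 tested genes of mineralized matrix that Runx2 or Sp7 are known to regulate, 1 was called higher and 1 lower, with a median log2 fold change of -0.29. *Sost*, which encodes the Wnt inhibitor sclerostin and is expressed by osteocytes, was counted at 4.53, 8.65 and 6.67 CPM in the control and at 0.896, 1.35 and 0.763 CPM in the mutant libraries. Every mutant value was below every control value, with a log2 fold change of -2.72 (SE 0.31, adjusted p = 0.0014, edgeR). The 7 skeletal muscle markers also summed to less in the mutant (18.2, 32.4 and 8.34 CPM in the control, 2.15, 2.46 and 2.47 CPM in the mutant). *Hba-a1* and *Alas2* of the red cell markers were called lower too. The 7 red cell genes, however, overlapped in their sum (1330, 784 and 880 CPM in the control, 245, 942 and 324 CPM in the mutant). Within the control, *Sost* and the muscle sum were both highest in library 2. *Sost* was lowest in control library 1, where *Hba-a1* and *Alas2* were highest, and the muscle sum was lowest in control library 3. Whether these differences share a cause was not tested. In the bone list, *Col10a1*, the collagen X gene, was also lower (0.512, 0.635 and 0.437 CPM in the control, 0.203, 0.295 and 0.170 CPM in the mutant, log2 fold change -1.24, edgeR adjusted p = 0.042), whereas *Bglap*, its most abundant gene, was not called (334.2, 578.8 and 442 CPM in the control, 655.7, 473.6 and 380.8 CPM in the mutant). *Spp1*, the osteopontin gene, rose by 1.23 in log2 terms (edgeR adjusted p = 0.039), with values of 13.7, 11.3 and 19.6 CPM in the control and 55.2, 24.2 and 25.4 CPM in the mutant libraries. Without mutant library 1 the log2 fold change of *Spp1* was 0.74 (adjusted p = 0.07), and without any 1 of the control libraries it was not called either. *Phospho1* and *Phex*, both of mineralization, had log2 fold changes of -0.29 and -0.77 and were not called (adjusted p = 0.12 and 0.27, edgeR), and 83.4% of the stretches of *Phospho1* are shared with other genes.

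Of 17 genes of the Hedgehog, BMP and TGF-β pathways that meet *Nfic* in root formation, 1 was called higher and 3 lower, with a median log2 fold change of -0.08. *Gli1*, a transcription factor whose RNA reports Hedgehog signaling, was counted at 135.4, 100.9 and 120.7 CPM in the control and 206.9, 333.3 and 197.1 CPM in the mutant libraries, with no overlap. It rose by 1.05 in log2 terms (edgeR adjusted p = 0.016), while *Ptch1*, another such reporter, differed by 0.09 without being called (edgeR adjusted p = 0.72). *Bmpr1a*, a BMP receptor, *Hhip*, an inhibitor that binds Hedgehog ligands, and *Gli3*, the main repressor of the pathway, fell by 0.63, 0.56 and 0.50 (adjusted p = 0.032, 0.037 and 0.044, edgeR). With GC differences removed *Bmpr1a* and *Hhip* were not called (-0.35 and -0.27, adjusted p = 0.11 and 0.16), and without control library 2 or without control library 3 none of the 4 genes was called.

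Of the 7 tested genes of the Sp family beside *Sp7*, 1 was called lower, with a median log2 fold change of -0.46. It was *Sp9*, known from limb and neuron development, at 13.9 ± 2.08 CPM in the control and 8.78 ± 1.79 CPM in the mutant (SD, n = 3 per group), with a log2 fold change of -0.66 (adjusted p = 0.038, edgeR) that was not called without control library 2, control library 3, mutant library 2 or mutant library 3 (adjusted p = 0.056 to 0.14). *Sp3*, *Sp4* and *Sp1* did not overlap between the groups but were not called, with log2 fold changes of -0.47, -0.67 and -0.46 (adjusted p = 0.060, 0.062 and 0.091, edgeR) that were -0.15, -0.35 and -0.24 with GC differences removed. With *Sp9*, 4 of the 7 genes were lower without overlap. Of all tested genes, 22.1% were lower in this way and 44.7% lay apart in either direction. The most abundant Sp gene was *Sp6*, which acts in dental epithelium, with 902.5 ± 100.6 CPM in the control and 1018 ± 207.4 CPM in the mutant.

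**Figure D5:**
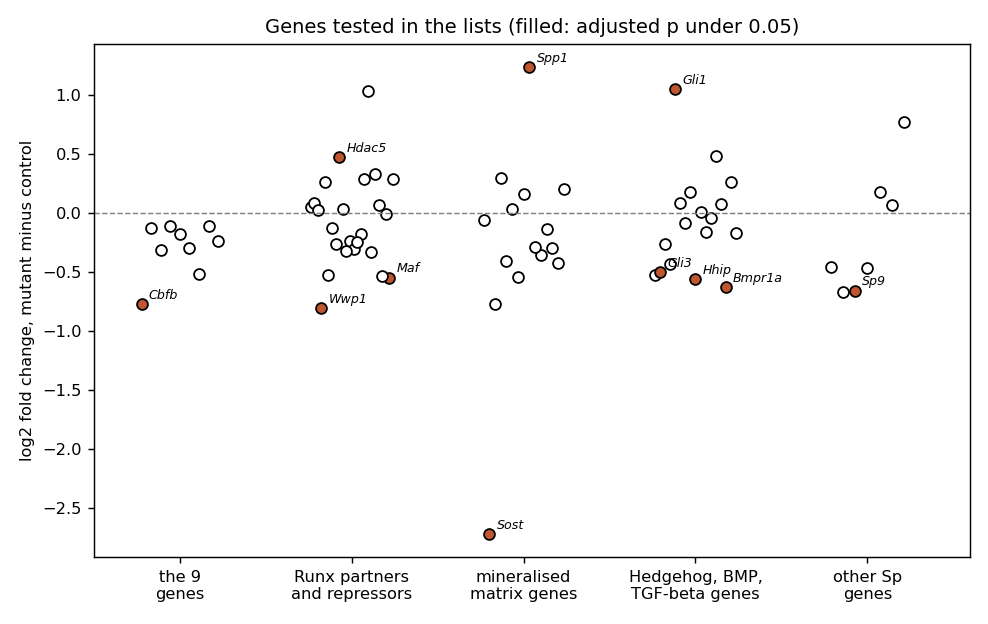
Log2 fold change, mutant minus control (vertical axis), of tested genes among the 9 genes and in the 4 lists, with genes of an adjusted p under 0.05 (edgeR) filled and named. *Cbfb* is the filled point among the 9 genes, and the lists of Runx partners, mineralized matrix, Hedgehog, BMP and TGF-β genes and other Sp genes have 3, 2, 4 and 1 filled points, with 1 gene of the first list not drawn.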

How the data were processed

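The authors deposited estimated counts per gene, not normalized, and a table of normalized signal in which each value is the count plus 1 times a library factor and gene length does not enter. Their methods give single-end reads of 75 cycles aligned to mm10 with TopHat 2, whereas the submitters' processing notes list STAR 2.6.1d and Partek, so the aligner is uncertain. Strand use is not given in the sources used here. Another 6 sample columns of the count table, of samples outside these groups, were not used.

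Estimated counts were rounded, since the planned design assumed whole counts. They were compared with edgeR 4.0.16 (R 4.3.3) by its quasi-likelihood test with TMM scaling, filterByExpr, no block and Benjamini-Hochberg adjustment over 19330 genes. A gene was called at an adjusted p under 0.05. CPM are TMM-scaled, and exact permutation tests were two-sided, on the shares and on log2 CPM (prior count 2). Intervals of 95% come from edgeR's fit. The biological coefficient of variation was 18.7%, and 532 to 12901 counts per library lay behind the 9 genes. Gene positions, lengths and stretches of 75 bases are from GENCODE M21. The steps were tested on simulated data.

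The 9 genes, the gene lists and the marker lists (dental mesenchyme, odontoblast, dental epithelium, bone, leukocyte, osteoclast, red cell, endothelium, Schwann cell and neuron, skeletal muscle) were chosen with earlier results of these data known. The text names the 9 genes, *Ror2*, the 4 genes of smallest p in each list (1 of them is not reported here), the 3 genes nearest in pattern to *Nfic*, *Runx2* and *Sp7*, defining or most abundant markers, and, chosen after their values were seen, *Ptch1*, *Sp6*, *Hba-a1*, *Alas2* and *Col10a1*. Alternatives were DESeq2 1.42.0, edgeR's likelihood ratio test, limma 3.58.1 (voom with sample weights, and limma-trend on the normalized signal with pseudocounts of 1 and 0.1), other scalings and filters, GC and length offsets, the label index as a replicate block, counts summed with genes sharing sequence, and leaving out each library.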

Additional observations from a re-analysis of the deposited data

How the results depend on the processing

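*Cbfb* was called in 18 of 19 alternative fits over all genes and kept its direction in each. The exception was the replicate block with GC offset (-0.52, adjusted p = 0.071). *Runx2* was called in 5 of 20 such fits and kept its direction in each. Among the 9 genes, 2 (*Runx2* and *Cbfb*) were called with DESeq2, the likelihood ratio test, voom and library size alone, and 0 with the block and GC offset. With 1 library left out 1 to 2 were called.

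Over all genes, 6341 were called with voom, 2013 with the replicate block, 1293 with block and GC offset, and 872 (without control library 3) to 5001 with 1 library left out, against 3906 in all. It was 910 without control library 2 and 2404 without mutant library 1. The list of Runx partners had 9 called with voom, 2 with the block, 0 with block and GC offset, and 0 to 8 with 1 library left out. The matrix list had 1 called on the normalized signal with pseudocount 1 and 1 to 2 with 1 library left out. The Hedgehog, BMP and TGF-β list had 8 called with voom, 2 with each GC offset, 2 with the block, 0 with block and GC offset, and 0 to 4 with 1 library left out. The Sp list had 3 called with DESeq2, the likelihood ratio test and library size alone, 4 with voom, 0 with the block, the block and GC offset and the normalized signal with pseudocount 1, and 0 to 1 with 1 library left out.

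*Ror2* had -0.43 with the block (adjusted p = 0.058), and -0.46 to -0.41 with 1 library left out (adjusted p = 0.066 and 0.075 without control libraries 2 and 3). *Nfia* reversed to 0.14 with the GC offset, 0.24 with the GC and length offset and 0.14 with block and GC offset, *Nfib* to 0.08 and *Runx1* to 0.00 with the GC and length offset. Relative to the mesenchyme markers, *Nfia*, *Nfic* and *Nfix* reversed to 0.05, 0.05 and 0.03, and *Cbfb* had -0.61. *Usp6nl* reversed to 0.03, 0.10 and 0.02 with the GC, GC and length, and block and GC offsets, and ranged from -0.21 to 0.05 with 1 library left out, *Timp2* from -0.19 to 0.03. The differences in NFI family shares changed sign with 1 library left out and ranged from -0.199 to 0.372 percentage points (*Nfia*), -1.01 to 0.0637 (*Nfib*), -1.11 to 1.53 (*Nfic*) and -0.879 to 1.13 (*Nfix*, 0.0729 with the longest transcript). Those in Runx family shares kept their sign and ranged from 0.209 to 6.15 (*Runx1*), -7.27 to -1.96 (*Runx2*) and 0.492 to 3.67 (*Runx3*). The log2 ratio of *Nfic* to *Nfib* ranged from -0.0382 to 0.395 and of *Nfix* to *Nfia* from -0.0989 to 0.0782. The cause of these changes was not tested.

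Same-numbered libraries correlated at -0.38, -0.22 and 0.05 in their deviations from the group means, and the other pairs of a control and a mutant library at -0.19 to 0.32. With 3 libraries per group, these values cannot show whether the libraries were paired. The paper's methods speak of 3 pairs of samples without saying which libraries belong together. The block therefore rests on the number in the label alone.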
